A study of Homo sapiens with 6 samples.

Results

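The NRF2 antioxidant response was followed through 10 of its genes in SW480 cells, a human colorectal adenocarcinoma line, and 5 of them were lower in the arrays labelled CPEB3 than in the arrays labelled NC. The 10 genes are the NRF2 gene NFE2L2, its inhibitor KEAP1, and NQO1, HMOX1, GCLC, GCLM, TXNRD1, SRXN1, OSGIN1 and SQSTM1. They were chosen as a pathway, with earlier results of these data known, and are spread over 9 chromosomes, with GCLC on chromosome 6, GCLM on 1, HMOX1 on 22, SQSTM1 on 5 and SRXN1 on 20. Every probe set that the HG-U133 Plus 2.0 annotation gives to exactly 1 gene was used if that gene was among the 10. This gave 23 of the 54613 probe sets tested, and 10 of the 19775 genes. A further probe set carries the NFE2L2 symbol together with a second gene and was left out.

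RNA of transfected SW480 cultures was hybridised to 6 Affymetrix arrays. There were 3 labelled as overexpressing CPEB3, an RNA-binding regulator of mRNA translation, and 3 labelled as negative control (NC). The labels call the 3 samples of a group biological replicates and name no separate cultures, clones or days, so every p-value here reflects the spread among these 6 samples, which may be technical. Both groups were grown in the same medium with fetal calf serum, penicillin and streptomycin. The labels name neither the construct nor the time after transfection. The arrays measured RNA of whole cultures, so fewer cells with a transcript and less of it per cell cannot be told apart.

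CPEB3 mRNA did not follow the labels: 3 of its 4 probe sets, all dim, were lower under the CPEB3 label and 0 higher. The most variable of them averaged a log2 intensity of 2.31 under the CPEB3 label and 3.75 under the NC label (adjusted p = 7.80e-05 over all probe sets, limma with Benjamini-Hochberg). The other lower ones differed by -0.35 (adjusted p = 0.00877) and -0.25 (adjusted p = 0.0473, same test). The brightest averaged 5.37 under the CPEB3 label and 5.32 under the NC label, which did not pass (adjusted p = 0.695, same test). Where these probe sets lie relative to the transfected sequence is not given in the labels. Every direction given here therefore rests on the labels as written. Pearson's r between arrays over all probe sets was 0.997 to 0.998 within groups and 0.991 to 0.992 between them. All 7 epithelial markers (EPCAM, KRT8, KRT18, KRT19, CDH1, VIL1, CDX2) were above the median probe set on every array, and so were 5 of 11 leukocyte, fibroblast and endothelial markers. KRT18 (0.26) and, of those 11, ITGAM (0.32) were higher, and no marker was lower. Levels among the 11 ran from COL1A1, at 6.48 on arrays labelled CPEB3 and 6.32 on arrays labelled NC, down to CDH5, at 1.54 on arrays labelled CPEB3 and 1.42 on arrays labelled NC. PTPRC, the pan-leukocyte marker, averaged 1.62 on arrays labelled CPEB3 and 1.48 on arrays labelled NC. The summed intensity of those 11 was 224 to 241 on arrays labelled CPEB3 and 210 to 222 on arrays labelled NC, and its part in the results was not tested.

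NRF2 is a transcription factor that is made continuously and, in unstressed cells, destroyed continuously. KEAP1 holds it to a CUL3 ubiquitin ligase. Electrophiles and oxidants modify cysteines of KEAP1, NRF2 then accumulates, pairs with small MAF proteins and binds antioxidant response elements in its target genes. The targets supply glutathione, reduce thioredoxin and quinones, and break down haem. Because the control acts largely on protein stability, the NFE2L2 mRNA level is not a measure of NRF2 protein.

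At gene level, where each gene is represented by its brightest probe set, 5 of the 10 genes were lower past the threshold (limma, Benjamini-Hochberg adjusted p under 0.05 over 19775 genes) and 0 were higher. Over all genes, 12.5% were lower and 10.9% higher by the same rule. Lower by 1.5-fold or more were 3 of the 10, HMOX1, GCLC and GCLM, beside 2.75% of all genes. The 5 were HMOX1, GCLC, GCLM, SQSTM1 and SRXN1. The other 5, NFE2L2, KEAP1, NQO1, TXNRD1 and OSGIN1, did not pass. The median log2 difference of the 10 was -0.30, beside 0.02 for all genes. The 2 groups did not overlap in 7 of the 10 genes, and they did not overlap in 39.1% of all genes.

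**Figure D1:**
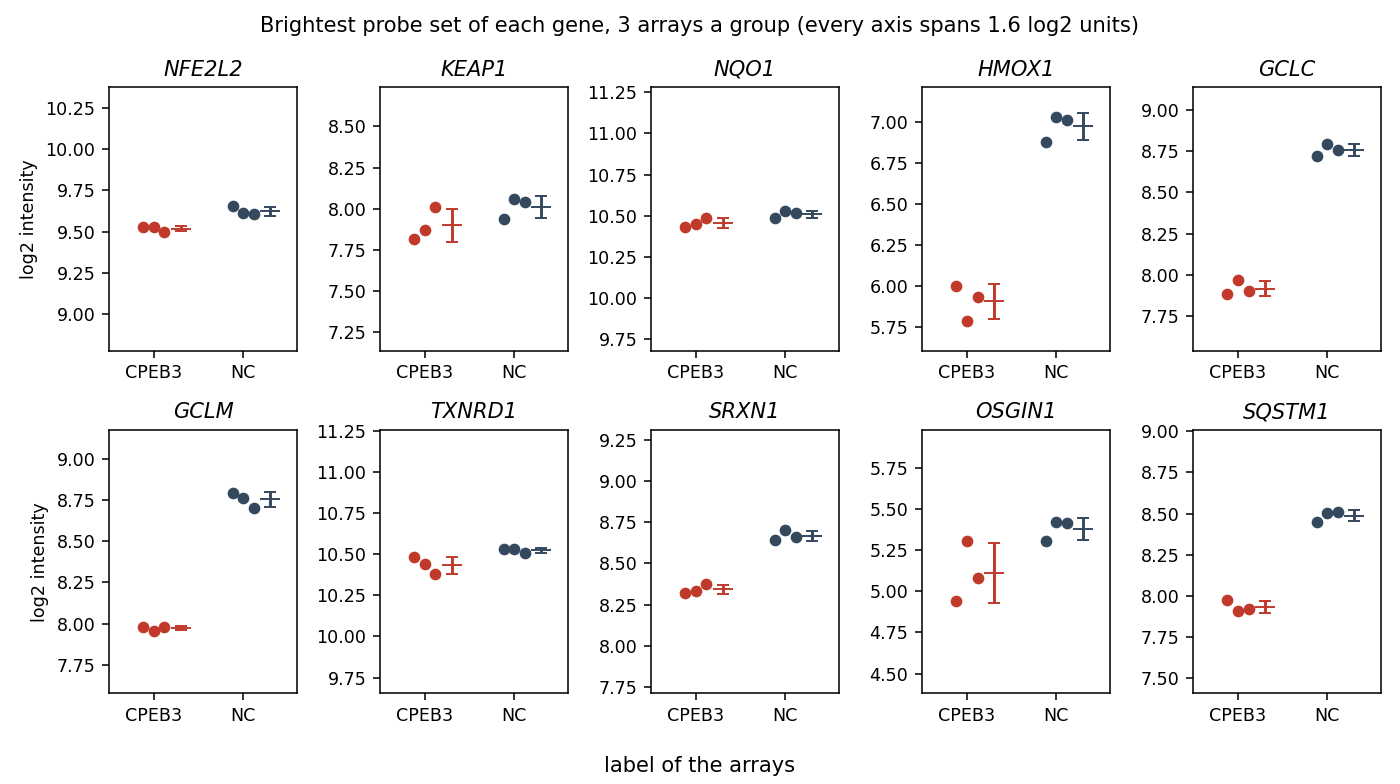
Log2 intensity at the brightest probe set of each of the 10 genes, with 1 point per array, arrays labelled CPEB3 on the left and NC on the right of each panel, and the mean with its SD (n = 3) beside the points. The groups stand far apart for HMOX1 (means 5.91 for CPEB3 and 6.97 for NC), GCLC (7.92 for CPEB3 and 8.76 for NC) and GCLM (7.97 for CPEB3 and 8.75 for NC), and close together for NQO1 (10.46 for CPEB3 and 10.51 for NC). Heights in different panels cannot be compared, since each probe set has its own brightness.

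The mRNAs of NRF2 and KEAP1 did not pass the test, though NFE2L2 did so narrowly with an intensity trend in the variance model (adjusted p = 0.0497, limma with Benjamini-Hochberg, against up to 0.875 over its alternatives). NFE2L2 had log2 intensities of 9.53, 9.53 and 9.50 in arrays labelled CPEB3, against 9.65, 9.61 and 9.61 in arrays labelled NC (probe set 201146_at). All 3 CPEB3-labelled arrays lay below all 3 NC-labelled ones, by a small step. The difference was -0.11 with a 95% interval from -0.23 to 0.02 (adjusted p = 0.197, limma with Benjamini-Hochberg). The other NFE2L2 probe sets, both dimmer, differed by -0.07 and 0.13 and overlapped between groups.

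KEAP1, the adaptor that presents NRF2 for ubiquitination, has a single probe set (202417_at). It read 7.82, 7.87 and 8.01 in arrays labelled CPEB3, against 7.94, 8.06 and 8.04 in arrays labelled NC. The groups overlapped. The difference was -0.11, with a 95% interval from -0.27 to 0.05 (adjusted p = 0.294, limma with Benjamini-Hochberg). For NFE2L2 and KEAP1, falls of the size seen in HMOX1 or in GCLC and GCLM lie outside these intervals.

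SQSTM1 encodes p62, an autophagy receptor that binds KEAP1 and so frees NRF2, and it is itself an NRF2 target. Its brightest probe set, 201471_s_at, read 7.98, 7.91 and 7.92 in arrays labelled CPEB3, against 8.45, 8.51 and 8.51 in arrays labelled NC. The groups were well apart. The difference was -0.55 (SE 0.06, 1.47-fold lower; adjusted p = 1.70e-04, limma with Benjamini-Hochberg). The second probe set, 213112_s_at, read 5.21, 5.11 and 5.09 in arrays labelled CPEB3, against 5.74, 5.91 and 6.0 in arrays labelled NC, a difference of -0.74. The remaining 3 of its 5 probe sets gave no such fall, with differences of -0.13, 0.14 and -0.05, none past the threshold. Of those 3, 2 were below the array median throughout. Both probe sets that fell have names ending in _s_at, which Affymetrix gives to sets that can match several transcripts. Without such sets SQSTM1 rests on 239004_at and no longer passed (-0.13, adjusted p = 0.184, limma with Benjamini-Hochberg, the highest over its 19 alternatives).

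Both genes of glutamate-cysteine ligase fell. GCLC is the catalytic and GCLM the modifier subunit of this ligase, the rate-limiting enzyme of glutathione synthesis. GCLC read 7.88, 7.97 and 7.90 at its brightest probe set (202923_s_at) in arrays labelled CPEB3, against 8.72, 8.80 and 8.76 in arrays labelled NC. GCLM read 7.98, 7.96 and 7.98 at its brightest (203925_at) in arrays labelled CPEB3, against 8.80, 8.76 and 8.70 in arrays labelled NC. In both genes the gap between groups was many times the spread within them. GCLC was 1.80-fold lower (-0.84, SE 0.06) and GCLM 1.72-fold lower (-0.78, SE 0.06), with adjusted p = 1.40e-05 and 1.88e-05 (limma with Benjamini-Hochberg).

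At their brightest probe sets the 2 genes differed by similar factors. With all probe sets of a gene averaged, GCLC differed by -0.48 and GCLM by -0.76. At the brightest sets, the log2 ratio of GCLC to GCLM within an array averaged -0.06 ± 0.06 in arrays labelled CPEB3. It averaged 0.01 ± 0.07 in arrays labelled NC (SD, n = 3 each). The single ratios overlapped, from -0.10 to 0.01 in arrays labelled CPEB3 and from -0.07 to 0.06 in arrays labelled NC. The second GCLC probe set (202922_at) read 7.92, 7.92 and 7.94 in arrays labelled CPEB3, against 8.53, 8.50 and 8.41 in arrays labelled NC, a difference of -0.55. The remaining one, 1555330_at, lay near the array median and differed by -0.03, with overlapping groups.

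All 3 GCLM probe sets fell. The second, 234986_at, read 5.67, 5.74 and 5.75 in arrays labelled CPEB3, against 6.87, 6.64 and 6.79 in arrays labelled NC. That is a difference of -1.04, or 2.06-fold (adjusted p = 2.59e-05, limma with Benjamini-Hochberg over all probe sets). The dim last one, 236140_at, differed by -0.46 (adjusted p = 0.0182, limma with Benjamini-Hochberg). Its call was lost without CPEB3 replicate 1 or 2 and without NC replicate 1 or 3, with values from -0.47 to -0.36, and with spike-in centring (-0.28).

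The promoter of GCLM is shown because it holds the core of the antioxidant response element next to the start of a gene that fell. That of TXNRD1 is shown as a gene with the same core that did not pass the test. The search was for TGACNNNGC on both strands, in RefSeq windows (GRCh38.p14) of 250 bases before to 50 bases after each transcript start. Of the 10 genes, 9 had 14 windows between them. HMOX1 had no window, so its promoter was not searched. In capitals are the 9 bases of each match, and the last base printed is the first transcribed one.
GCLM, chr1:93909430-93909680, minus strand: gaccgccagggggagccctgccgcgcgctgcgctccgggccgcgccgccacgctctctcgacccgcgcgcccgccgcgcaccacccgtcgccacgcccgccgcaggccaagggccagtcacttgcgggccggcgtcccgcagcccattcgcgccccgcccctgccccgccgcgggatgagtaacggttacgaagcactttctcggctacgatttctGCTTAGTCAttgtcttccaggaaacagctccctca
TXNRD1, chr12:104215529-104215779, plus strand: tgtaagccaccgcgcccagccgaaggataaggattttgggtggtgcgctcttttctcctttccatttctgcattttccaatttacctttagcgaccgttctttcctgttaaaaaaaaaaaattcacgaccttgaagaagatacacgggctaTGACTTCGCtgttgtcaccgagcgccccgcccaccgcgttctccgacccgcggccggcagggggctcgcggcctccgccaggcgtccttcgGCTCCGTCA

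GCLM had 1 match, with its first base 34 bases before the start and the core on the opposite strand. TXNRD1 had 2 matches in the window printed, 99 bases (same strand) and 8 bases (opposite strand) before the start, and 1 more in the window of another start. KEAP1, which did not pass the test, had 2 in one of its windows, shown with 10 bases on each side.
KEAP1, chr19:10502807-10502835, minus strand: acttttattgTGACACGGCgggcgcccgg
KEAP1, chr19:10502784-10502812, minus strand: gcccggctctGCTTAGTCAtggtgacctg

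The second KEAP1 match has the same 9 letters as that of GCLM. No match was present in the windows of NFE2L2, NQO1, GCLC, SRXN1, OSGIN1 or SQSTM1, of which GCLC, SRXN1 and SQSTM1 fell. In all, 4 of the 14 windows (28.6%) held the motif, as did 13.3% of the 35116 windows of the whole table. A match is a run of letters, not a bound site, and windows of this length leave out elements farther away.

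TXNRD1, the cytosolic thioredoxin reductase, did not pass. It read 10.48, 10.44 and 10.38 in arrays labelled CPEB3 (201266_at), against 10.53, 10.53 and 10.51 in arrays labelled NC. The groups did not overlap, but the step was small, with a difference of -0.09 and a 95% interval from -0.22 to 0.04 (adjusted p = 0.305, limma with Benjamini-Hochberg). Its other probe set was among the dimmest of the 23 and differed by 0.07. SRXN1 is sulfiredoxin, which repairs over-oxidised peroxiredoxins. It read 8.32, 8.33 and 8.38 at its single probe set (225252_at) in arrays labelled CPEB3, against 8.64, 8.70 and 8.66 in arrays labelled NC. The groups were apart. SRXN1 was 1.25-fold lower (-0.33, SE 0.06; adjusted p = 0.00278, limma with Benjamini-Hochberg), the smallest of the 5 falls.

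HMOX1, haem oxygenase 1, which opens the haem ring and releases iron, carbon monoxide and biliverdin, had the largest difference of the 10 at gene level. It read 6.0, 5.79 and 5.93 in arrays labelled CPEB3 (203665_at), against 6.87, 7.03 and 7.01 in arrays labelled NC. The lowest NC value was above the highest CPEB3-labelled one by more than either group's whole range. HMOX1 was 2.09-fold lower (-1.06, SE 0.07; adjusted p = 1.67e-05, limma with Benjamini-Hochberg).

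NQO1, the quinone reductase often taken as the standard readout of NRF2 activity, did not pass at any of its 3 probe sets. The brightest (201468_s_at) read 10.43, 10.45 and 10.49 in arrays labelled CPEB3, against 10.49, 10.53 and 10.51 in arrays labelled NC. The groups overlapped. The difference was -0.05 with a 95% interval from -0.18 to 0.07 (adjusted p = 0.535, limma with Benjamini-Hochberg). The other NQO1 probe sets differed by -0.03 and -0.14.

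OSGIN1, an oxidative stress-induced growth inhibitor, read 4.94, 5.30 and 5.08 in arrays labelled CPEB3 (219475_at), against 5.30, 5.42 and 5.42 in arrays labelled NC. CPEB3 replicate 2 reached the lowest NC value, so the groups overlapped. The difference was -0.27 with a 95% interval from -0.48 to -0.06, and it missed the adjusted threshold (adjusted p = 0.0625, limma with Benjamini-Hochberg). Without CPEB3 replicate 2 it was -0.37 and passed (adjusted p = 0.0141, limma with Benjamini-Hochberg, against 0.0137 to 0.489 over all its alternatives). It also passed with the intensity trend, without dim genes and with the replicate block.

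By probe set, 9 of the 23 were lower and 0 higher (limma, Benjamini-Hochberg adjusted p under 0.05 over 54613 probe sets), where 7.86% of all probe sets were lower and 6.59% higher. The 9 belong to the same 5 genes as at gene level. The groups did not overlap in 13 of the 23, beside 32.1% of all probe sets. All 9 came from the 19 probe sets that were not below the array median throughout. None of the 4 below it passed.

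**Figure D2:**
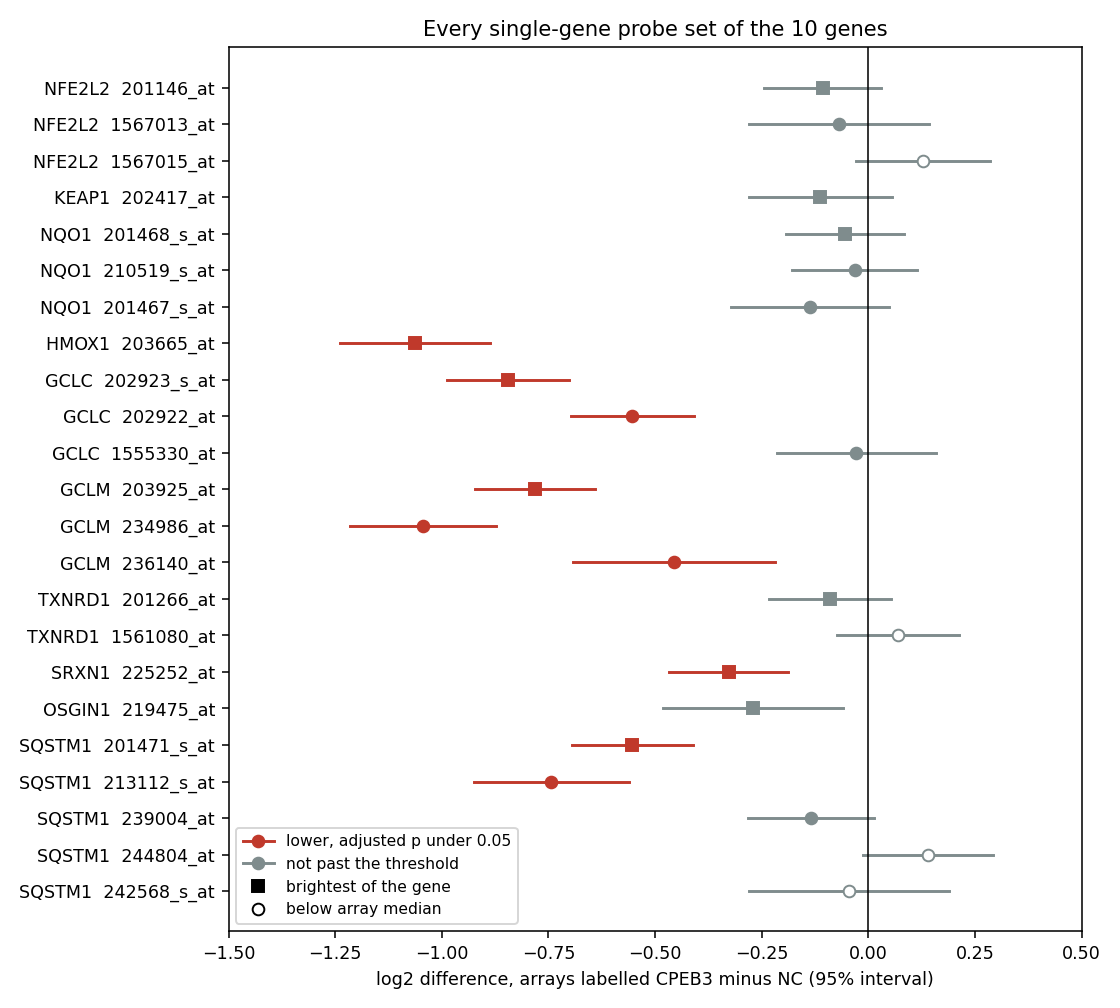
Log2 difference, arrays labelled CPEB3 minus arrays labelled NC, with its 95% interval for each of the 23 probe sets. Red marks those lower past the threshold, squares the brightest probe set of each gene, and open symbols probe sets below the array median on all 6 arrays. The 3 GCLM sets lie between -1.04 and -0.46, while the 3 NQO1 sets lie between -0.14 and -0.03.

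The size of these differences depends on how the arrays are scaled. The 18 hybridization spike-in probe sets were dimmer by 0.18 (log2) in the arrays labelled CPEB3. Centring each array on them moved the median difference of all genes to 0.20, and the calls over all genes to 7766 higher and 1038 lower, against 2146 and 2470 as deposited. HMOX1 (-0.88), GCLC (-0.67), GCLM (-0.60) and SQSTM1 (-0.37) were still lower past the threshold so centred, 4 of the 10 beside 5.25% of all genes, and 0 of the 10 were higher beside 39.3%. SRXN1 (-0.15) was not, with an adjusted p of 0.160 (limma with Benjamini-Hochberg), the highest over its 19 alternatives. NFE2L2, KEAP1, NQO1 and TXNRD1 turned to small positive values of 0.07 to 0.13 that did not pass.

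A comparison within each array does not depend on that scale. With every array centred on its own NQO1 value, an alternative added once the data had been looked at, the same 5 genes were lower, where 9.73% of all genes were. As deposited NQO1 differed by only -0.05, so this centring moved each difference little and is no independent test of the calls. Relative to NQO1, HMOX1 was at -1.01, GCLC at -0.79, GCLM at -0.73, SQSTM1 at -0.50 and SRXN1 at -0.27. SRXN1 had the weakest of these calls, at an adjusted p of 0.00559 (limma with Benjamini-Hochberg). TXNRD1 (-0.04), NFE2L2 (-0.05), KEAP1 (-0.06) and OSGIN1 (-0.22) did not differ from NQO1 past the threshold. This shows unequal change among the targets, not that NQO1 itself was constant. All 3 NQO1 probe sets have names ending in _s_at, so NQO1 has no value without such sets.

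**Figure D3:**
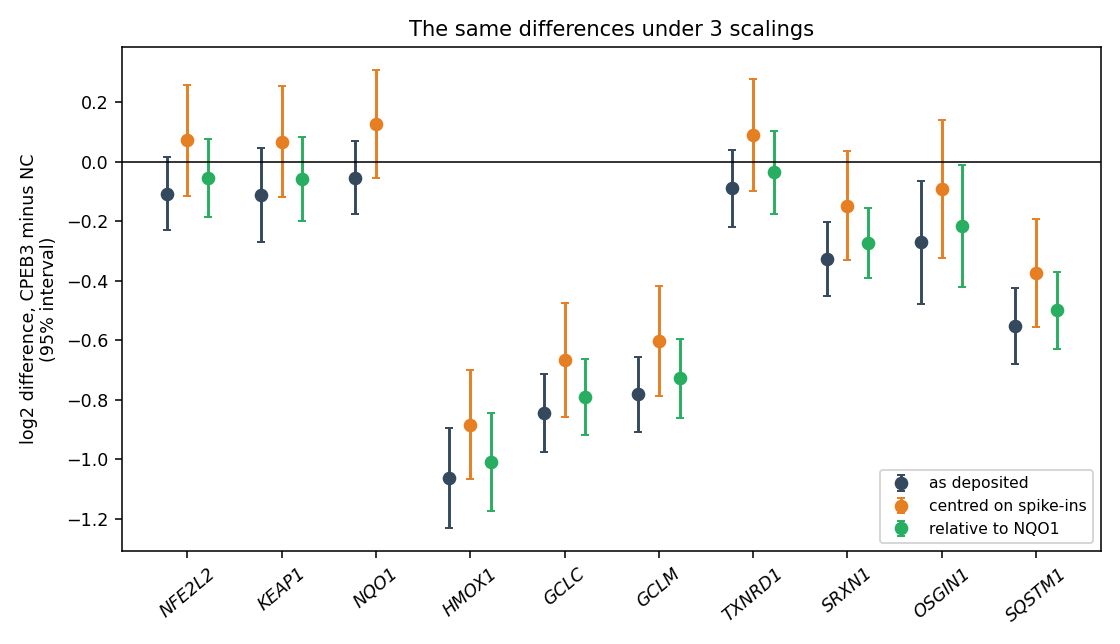
Log2 difference, arrays labelled CPEB3 minus NC, with 95% intervals for the 10 genes as deposited, after centring on the spike-ins and relative to NQO1. The spike-in values lie 0.18 above the deposited ones. HMOX1, GCLC, GCLM and SQSTM1 lie below 0 under all 3 scalings, while the SRXN1 interval crosses 0 under spike-in centring.

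Other genes of the pathway were taken from 7 lists, of which 73 of 79 genes were measured. Of these, 21 were higher and 16 lower (28.8% and 21.9%, beside 10.9% and 12.5% of all genes; 40 and 9 with spike-in centring), so the wider pathway went both ways. Their median difference was 0.07. The count of each list is read against the same 10.9% higher and 12.5% lower of all genes, or 39.3% and 5.25% with spike-in centring.

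Partners and relatives of NRF2 included the largest fall in the 7 lists. MAFF, a small MAF protein that pairs with NRF2 and BACH1 at antioxidant response elements, read 7.40, 7.51 and 7.62 in arrays labelled CPEB3, against 9.17, 9.20 and 9.20 in arrays labelled NC. It was 3.20-fold lower (-1.68; adjusted p = 5.07e-07, limma with Benjamini-Hochberg), with both of its probe sets falling. The NRF2-related factor NFE2L3 fell by 0.92, with 6.26, 6.23 and 6.26 in arrays labelled CPEB3, against 7.25, 7.14 and 7.10 in arrays labelled NC. BACH1, the repressor that competes with NRF2 at HMOX1, fell by 0.63 at 1 of its 3 probe sets, or by 0.17 with their mean. MAFG fell by 0.36 and NFE2L1 by 0.26, both calls lost with spike-in centring (-0.18 and -0.08). The NFE2L1 call was also lost at a threshold of 0.01 and without NC replicate 2 (adjusted p = 0.0534, limma with Benjamini-Hochberg). CUL3, the scaffold of the ligase that destroys NRF2, rose by 0.43 at 1 of its 3 probe sets, or by 0.16 with their mean. In all, 2 of the 11 measured members of this list were higher (the other was BTRC) and 5 lower (4 and 3 with spike-in centring).

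Both chains of the cystine antiporter were lower, while several genes that make or use glutathione were higher. SLC7A11, the cystine antiporter that supplies glutathione synthesis and a target of both NRF2 and ATF4, read 6.95, 7.13 and 7.08 in arrays labelled CPEB3, against 8.17, 8.19 and 8.20 in arrays labelled NC. It was 2.19-fold lower (-1.13, SE 0.06; adjusted p = 4.93e-06, limma with Benjamini-Hochberg), and all 3 of its probe sets fell. Its heavy chain partner SLC3A2 fell by 0.69 and CHAC1, which degrades glutathione and is induced by ATF4, fell by 0.80. These were the 3 lower of the 19 measured genes of the list (15.8%, near the 12.5% of all genes). GPX1, a glutathione peroxidase, rose by 0.56, with 10.58, 10.50 and 10.56 in arrays labelled CPEB3 and 9.93, 10.02 and 10.00 in arrays labelled NC. It was 1 of 7 that rose (36.8%, beside 10.9% of all genes; 12 with spike-in centring). The other 6, named after their values were seen, were GSS, the last enzyme of glutathione synthesis, the membrane-bound transferases MGST1, MGST2 and MGST3, GSTO1 and the glutaredoxin GLRX. GLRX passed narrowly at gene level (adjusted p = 0.0394, limma with Benjamini-Hochberg), but neither of its 2 probe sets passed over all probe sets. These 6 were not followed singly through the alternatives. All 7 rose by less than 1.5-fold.

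Of 9 thioredoxin and peroxiredoxin genes, 3 rose and 1 fell (33.3% and 11.1%, the second near the 12.5% of all genes; 6 and 0 with spike-in centring). PRDX3, the mitochondrial peroxiredoxin, rose by 0.33, PRDX6 by 0.26 and TXN2 by 0.25, and TXNL1 fell by 0.18. Of 5 NADPH-supplying genes, PGD (0.28) and IDH1 (0.20) rose and TKT fell by 0.27 (3 and 0 with spike-in centring). Of 18 genes of drug detoxification and export, 3 rose and 5 fell (16.7% and 27.8%, beside 10.9% and 12.5% of all genes). With spike-in centring 7 rose, a share near the 39.3% of all genes, and 2 fell. The exporter ABCG2 (0.54) and the epoxide hydrolase EPHX1 (0.49) rose, whereas PIR (-0.68), an iron-binding protein known as an NRF2 target, and the exporter ABCC2 (-0.48) fell.

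Downstream of HMOX1 the biliverdin reductases went opposite ways. BLVRA rose by 0.49, with 4 of its 5 probe sets higher (0.22 and not called without _x_at and _s_at sets), and BLVRB fell by 0.40. HMOX2, the constitutive haem oxygenase, rose by 0.27. These were the called genes among 7 of iron and haem handling, 2 higher and 1 lower (5 and 1 with spike-in centring). The lower share, 14.3%, was near the 12.5% of all genes. Both measured cytosolic and mitochondrial superoxide dismutase genes, SOD1 (0.23) and SOD2 (0.40), rose (2 of 4 in that list, 3 with spike-in centring). Calls of TXNL1, IDH1, TKT, PRDX3, HMOX2, SOD1, PGD and TXN2 were lost in 3 to 14 of 19 alternatives, and IDH1, TKT and TXNL1 each changed sign in 1 more. For HMOX2, IDH1 and TXNL1, called at gene level, none of the probe sets passed over all probe sets.

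**Figure D4:**
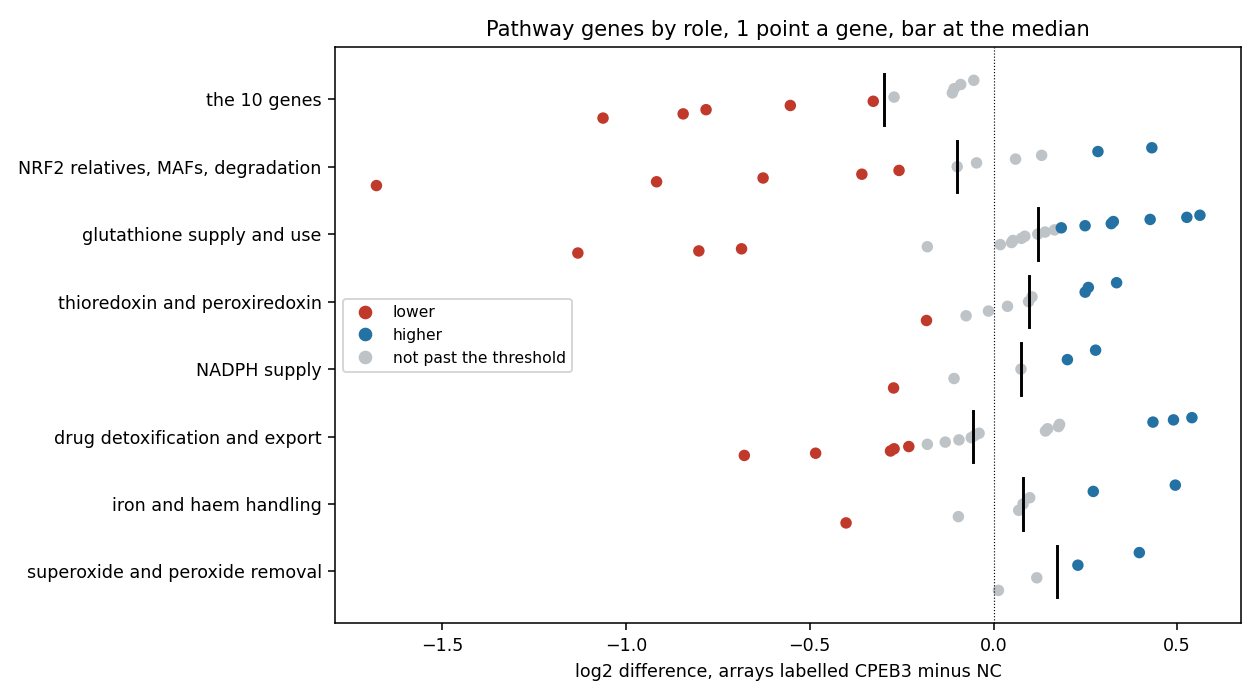
Log2 difference at gene level, arrays labelled CPEB3 minus NC, for the 10 genes (top row) and the 73 measured genes of the 7 wider lists, with 1 point per gene coloured by its call and a bar at each median. The top row has no gene above 0 and a median of -0.30, while the glutathione list runs from -1.13 (SLC7A11) to 0.56 (GPX1).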

How the data were processed

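The authors deposited a linear intensity for each probe set on each array, made with RMA per the submitters' processing notes. Which RMA version and probe set definition they used, and how the values became linear, is not given in the sources used here. RMA makes array distributions alike, so a change in a cell's total RNA would not show. No detection calls were used, and the number of arrays limits the precision.

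Log2 was taken before any test. Genes were tested at their brightest single-gene probe set, and all 54613 non-control probe sets were tested separately, with limma 3.58.1 in R 4.3.3 (two-sided, group as the only term, Benjamini-Hochberg adjustment over all features, threshold 0.05). Steps were tested on simulated data. Same-numbered samples did not deviate together (correlations 0.00, -0.02 and 0.12), so the numbers were not taken as pairs.

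The 10 genes and all lists were chosen with earlier results of these data known. Named from the 7 lists were up to 4 called genes each with the largest difference, and NFE2L1, NFE2L3, BACH1, MAFF, MAFG and CUL3 whatever their result; BTRC, GSS, MGST1, MGST2, MGST3, GSTO1 and GLRX were named after their values were seen. Some listed genes, among them MAFK, FTH1, AKR1B1, PRDX5 and TXNRD3, were not analysed here. Alternatives covered probe set choice, dim features, scaling, variance model, array weights, the replicate block, a threshold of 0.01 and each array left out; centring on NQO1 was added after the data were seen. Figures were drawn with matplotlib 3.10.9.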

Additional observations from a re-analysis of the deposited data

How the results depend on the processing

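HMOX1, GCLC and GCLM kept their fall past the threshold under all 19 alternatives run for each, from -1.11 to -0.88, -0.87 to -0.48 and -1.04 to -0.60. Lower genes among the 10 numbered 4 to 7 and higher ones 0 under every alternative, 7 of them with an intensity trend, which added NFE2L2 and OSGIN1, and 6 with the replicate block, which added OSGIN1. Leaving out 1 array gave 5 to 6 lower genes, 8 to 9 lower probe sets, and 14 to 18 higher and 11 to 15 lower genes in the wider lists. In those lists the counts were 10 higher and 9 lower without _x_at and _s_at sets, 40 and 9 with spike-in centring, and 12 and 10 at a threshold of 0.01. With the replicate block they were 18 and 15. Without _x_at and _s_at sets, genes that have no other set dropped out, so those counts cover fewer genes. Among the dropped were the called genes NFE2L1, MAFG, SLC3A2, PIR, GPX1, PRDX6 and CUL3. Except for spike-in centring and centring on NQO1, the share of all genes called under these alternatives was not worked out. These counts therefore show only how the calls move with the setting and with the genes left in it. The share of all probe sets called under spike-in centring was not worked out. Spike-in centring gave 3 higher probe sets among the 23, 1567015_at (NFE2L2), 244804_at (SQSTM1) and 1561080_at (TXNRD1), all below the array median. It turned these to positive: NFE2L2 0.072 (and 0.11 at 1567013_at), KEAP1 0.067, NQO1 0.13 (0.043 and 0.15 at its other sets), TXNRD1 0.090, GCLC 1555330_at 0.15, and SQSTM1 239004_at 0.046 and SQSTM1 242568_s_at 0.13. That shift follows from the centring. With 1 array left out, GCLC 1555330_at ranged from -0.088 to 0.028 and SQSTM1 242568_s_at from -0.14 to 0.049, positive for the first without CPEB3 replicate 3 or NC replicate 1 and for the second without CPEB3 replicate 1 or NC replicate 3. NQO1 210519_s_at was 0.0024 with repeated quantile normalization. CPEB3 was -0.50 when all its probe sets were averaged and -1.44 at the most variable. At the most variable set IDH1 was -0.10 and TXNL1 0.17, and TKT was 0.17 without _x_at and _s_at sets. The causes were not tested.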
